A study of Mus musculus with 5 samples.

Results

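The MYC, MAX and MXD network is a group of transcription factors that share a basic helix-loop-helix leucine zipper, and 10 of its genes were followed here by symbol among the 39179 genes of the deposited count table: Myc, Mycn, Max, Mlx, Mxd1, Mxi1, Mxd3, Mxd4, Mnt and Mga. All 10 passed the filter on low counts that left 13000 genes for testing. RNA was measured in sorted TER119+ erythroid cells from fetal liver of C57BL/6 mouse embryos, collected 14.5 days post conception. The 3 control libraries were of genotype Csnk2b+/+ Vav+/Cre and the 2 KO libraries of genotype Csnk2bfl/fl Vav+/Cre. Both groups thus carried the Cre recombinase that the Vav1 promoter drives throughout the blood-forming system, and differed in whether Csnk2b, the gene for the regulatory subunit of protein kinase CK2, was floxed. The titles number each library as an embryo and do not state whether embryos were pooled, so each p-value reflects only how far these samples vary, which may be technical.

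MYC and MYCN pair with MAX, bind the DNA hexamer CACGTG (the E-box) and raise transcription of genes for ribosome production and growth. MXD1, MXI1, MXD3, MXD4 and MNT compete for MAX, bind the same letters and bring in SIN3 and histone deacetylases, which lower transcription. MGA also pairs with MAX and belongs to a variant Polycomb repressive complex, and MLX is the MAX-like partner of the glucose-responsive MONDO factors and of some MXD proteins. As erythroblasts mature, they are known to turn down Myc and to turn up MXD family genes.

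The promoter letters that these dimers read were looked for in windows of 300 bases, from 250 before to 50 after each RefSeq gene start (build GRCm38.p6). The motif searched was CACGTG, which reads the same on both strands. Of the 10 members, 9 matched a window (Mxi1 has 3) and Myc did not. The 4 with the hexamer are shown because they are the members whose own start regions hold the network's binding letters. Capitals mark the hexamer, and each line runs 5′ to 3′ on the gene's strand.
Max: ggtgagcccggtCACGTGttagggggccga
Mlx: ggtgggttggatCACGTGactgagcctcgc
Mnt: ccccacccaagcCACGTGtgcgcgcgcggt
Mxd4: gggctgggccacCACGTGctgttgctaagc
The Max stretch lies at chr12:76962234-76962263 on the minus strand, with the hexamer beginning 3 bases before the start. The hexamer begins 40 bases before the Mlx start (chr11:101087238-101087267, plus strand) and 123 before that of Mnt (chr11:74830789-74830818, plus strand). In Mxd4 it begins 219 bases before the start (chr5:34187912-34187941, minus strand). The windows of Mycn, Mxi1, Mxd1, Mxd3 and Mga do not hold these letters. The hexamer was present in 7.15% of all 32851 windows and in 12% of the 9265 tested genes with a window. A match is a description of the letters and shows no binding.

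The libraries held 13187094 to 15366021 counts each, and levels are given as CPM, reads scaled to the TMM-adjusted library size. KO replicates 1 and 2 are written KO 1 and KO 2. Csnk2b was the check of the labels, with CPM of 186, 186 and 169 in the controls, 112 in KO 1 and 95.6 in KO 2 (1.74-fold lower, edgeR adjusted p = 0.0018). The counts cover the whole gene, so transcripts that lack only the floxed part may still be counted. All 13 erythroid defining markers were tested and 0 passed in edgeR, beside 5.15% higher and 1.83% lower over all genes tested. At an unadjusted p below 0.05 in edgeR, 2 were lower, beside 9.48% of all genes tested. Of the 13 estimates, 12 were below 0, beside 6171 of the 13000 genes tested. The summed CPM of these markers was 75244 to 92469 in controls, 87431 in KO 1 and 68698 in KO 2. Control replicate 3 stood apart by holding Y-linked reads (454 of Eif2s3y and 367 of Ddx3y, against at most 2 in any other library) beside Xist at 547 CPM, against 788 to 1026 CPM in the other libraries, and leaving it out changed the direction of Mxd4 only among the members.

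No gene of the network passed the test between KO and control cells. At an edgeR adjusted p below 0.05, 0 of the 10 members were called, against 6.98% of all genes tested (5.15% higher and 1.83% lower in KO). At an unadjusted p below 0.05 the count was also 0, against 23.8% of all genes tested (14.3% higher and 9.48% lower), and DESeq2 and limma-voom called 0 as well. The largest estimates were 0.37 for Mycn upward and -0.19 for Mxi1 downward on the log2 scale. The median log2 fold change of the 10 members was -0.07, beside 0.01 over all genes tested. In 4 members both KO libraries lay on one side of all controls, Mlx and Mnt above and Max and Mxi1 below. That is 40% of the members, beside 41.2% of all genes tested (21.9% above and 19.3% below). A test that misses its threshold does not show equal levels, so the interval of each difference is given with each gene. In bulk RNA, fewer cells that express a gene and less RNA per cell cannot be told apart.

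**Figure D1:**
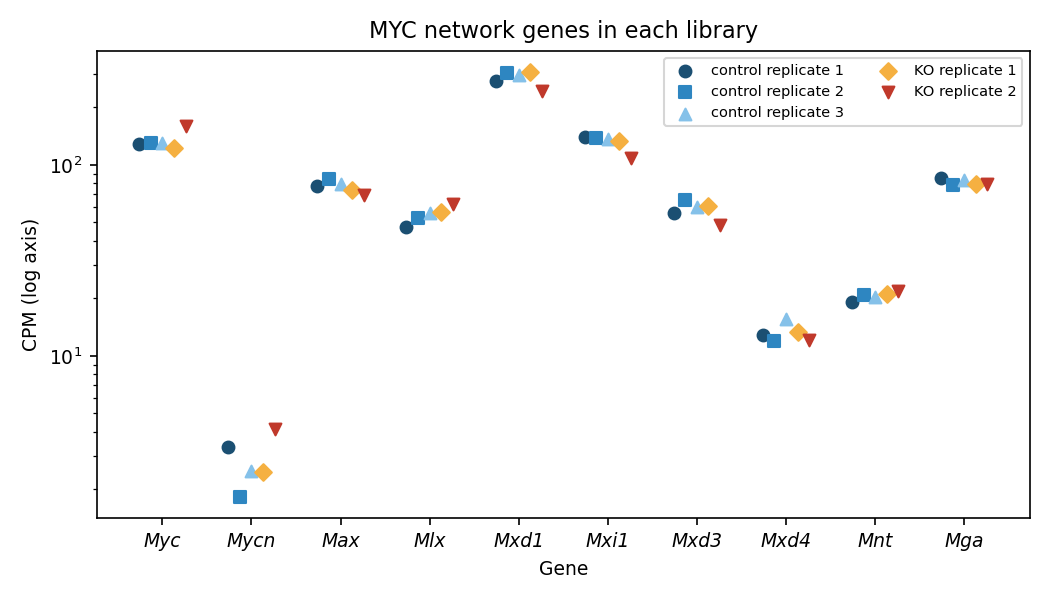
CPM on a log axis for each of the 10 network genes, with 1 point per library (3 control, 2 KO). Mxd1 sits highest at 245 to 307 CPM and Mycn lowest at 1.83 to 4.15 CPM, and for Myc, Mxi1, Mxd1 and Mxd3 KO 2 stands apart from the other 4 libraries.

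**Figure D2:**
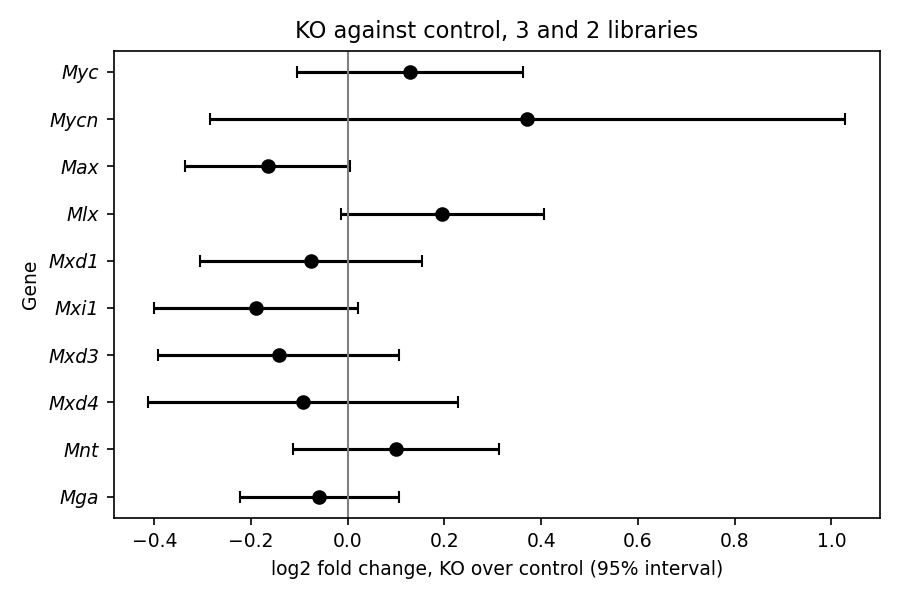
Log2 fold change of KO over control for each network gene (points) with its 95% interval (bars) from the edgeR fit on 3 control and 2 KO libraries. Every interval spans 0, and that of Mycn, the gene with the fewest counts, is the widest, from -0.29 to 1.03.

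Levels of different genes were compared per kilobase of exon. In the controls Myc was the most abundant member at 47.6 CPM per kb ± 0.37 (SD, n = 3), followed by Mxd1 at 41.1 ± 2.03. Mlx (26.0 ± 2.17) and Mxd3 (25.5 ± 1.93) overlapped each other across the controls. Max (22.4 ± 0.93) and Mxi1 (20.2 ± 0.26) came next. Mga (5.37 ± 0.24), Mnt (4.35 ± 0.20), Mxd4 (1.59 ± 0.22) and Mycn (0.78 ± 0.23) were lowest. Apart from Mlx and Mxd3, no neighbours in this order overlapped in their control values. Myc made up 24.4% of the summed network level in the controls on average and Mxd1 21.1%, while Mycn made up 0.40%. The order rests on the length used: with the longest coding transcript in place of all exons, Mxd1 (62.3 CPM per kb) ranked above Myc (55.3), Mxd3 (45.5) and Max (41.4), and Mxi1 (27.4) ranked above Mlx (26.5).

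Myc (ENSMUSG00000022346, chromosome 15, 61985391 to 61990374, plus strand, build mm10) encodes the main activator of the network. Control replicates 1, 2 and 3 gave 128, 130 and 129 CPM, KO 1 gave 123 CPM and KO 2 gave 160 CPM. The controls thus lay within a narrow band, with KO 1 just under it and KO 2 well above it. The log2 fold change was 0.13 ± 0.10 (SE), with a 95% interval from -0.11 to 0.36 (edgeR adjusted p = 0.49). Its direction depended on which KO library was used. Without KO 1 the estimate was 0.28 (edgeR adjusted p = 0.019), and without KO 2 it was -0.08 (edgeR adjusted p = 0.65). Fits with a lone KO library assume that it varies as the controls do, and without KO 1 the share of all genes called was 12.7% higher and 9.28% lower.

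Mycn (ENSMUSG00000037169, chromosome 12, 12936093 to 12941914, minus strand), a relative of Myc that is more active in early progenitors, was read only 52, 24 and 36 times in the controls and 32 and 64 times in KO 1 and KO 2. These counts equal 3.35, 1.83 and 2.50 CPM in controls and 2.46 and 4.15 CPM in KO. KO 1 fell among the controls and KO 2 above them. Its log2 fold change of 0.37 ± 0.29 (SE) had an interval from -0.29 to 1.03 (edgeR adjusted p = 0.48), which covers changes in both directions at this depth. Mycl, the remaining MYC family gene, was named after its values were seen. It held 10, 3 and 5 reads in controls and 11 and 19 in KO, and 1.32 ± 0.39 (SE) on the log2 scale (edgeR adjusted p = 0.08).

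Max (ENSMUSG00000059436, chromosome 12, 76937269 to 76962201, minus strand) encodes the partner that activators and repressors share. Its CPM was 77.8, 84.2 and 79.4 in controls, 74.0 in KO 1 and 69.5 in KO 2. Both KO libraries were below all controls, KO 1 by less. The log2 fold change was -0.17 ± 0.08 (SE), the interval ran from -0.34 to 0.0046, and the edgeR adjusted p was 0.22.

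Mlx (ENSMUSG00000017801, chromosome 11, 101087277 to 101092207, plus strand) moved the opposite way in its estimate. Its levels were 47.3, 53.0 and 55.8 CPM in controls and 56.6 and 62.4 CPM in KO. The KO libraries were above all controls, KO 1 by less than the gap between control replicates 2 and 3. The log2 fold change was 0.20 ± 0.09 (SE), from -0.01 to 0.41 (edgeR adjusted p = 0.24). Mlx shares 385 bases of exon with Psmc3ip on the opposite strand, and the strand setting of the counting is not stated. Psmc3ip was at 17.6 to 21.8 CPM in controls and 17.5 and 17.8 CPM in KO. Of the MONDO factors that pair with MLX, both named after their values were seen, Mlxip was at 37.6 to 40.4 CPM in controls and 40.7 and 39.3 CPM in KO. Mlxipl held 4 to 7 reads in every library and was not tested.

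Mxd1 (ENSMUSG00000001156, chromosome 6, 86647042 to 86669161, minus strand), which encodes the repressor MAD1 of differentiating cells, was the most abundant MXD family gene. Its CPM was 275, 303 and 295 in controls, 307 in KO 1 and 245 in KO 2. One KO library was above and the other below all controls. The log2 fold change was -0.08 ± 0.10 (SE), from -0.31 to 0.15 (edgeR adjusted p = 0.70). It was -0.27 without KO 1 (edgeR adjusted p = 0.043) and 0.07 without KO 2 (edgeR adjusted p = 0.71).

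Mxi1 (ENSMUSG00000025025, chromosome 19, 53310518 to 53375810, plus strand) encodes another MAX-binding repressor. It was at 139, 139 and 136 CPM in controls and at 134 and 108 CPM in KO. The controls and KO 1 lay close together and KO 2 was lower. The log2 fold change was -0.19 ± 0.09 (SE), from -0.40 to 0.02 (edgeR adjusted p = 0.26). Without KO 1 it was -0.37 (edgeR adjusted p = 0.0083), the smallest adjusted p of any member in any fit, and without KO 2 it was -0.05 (edgeR adjusted p = 0.81).

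Mxd3 (ENSMUSG00000021485, chromosome 13, 55325168 to 55329823, minus strand), an MXD gene known from dividing cells, stood at 56.0, 65.2 and 60.1 CPM in controls and 60.9 and 48.7 CPM in KO. KO 1 was within the controls and KO 2 below them. Its log2 fold change was -0.14 ± 0.11 (SE), from -0.39 to 0.11 (edgeR adjusted p = 0.47), -0.33 without KO 1 (edgeR adjusted p = 0.044) and 0.01 without KO 2 (edgeR adjusted p = 0.98). Mxd3 shares 105 bases of exon with Prelid1 on the opposite strand, which rose from 161 CPM in the control mean to 202 and 287 CPM in KO 1 and KO 2 (edgeR adjusted p = 0.037). The part of these shared bases in either value was not tested.

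Mxd4 (ENSMUSG00000037235, chromosome 5, 34173883 to 34187720, minus strand) was a minor MXD transcript at 12.9, 11.97 and 15.6 CPM in controls and 13.3 and 12.1 CPM in KO. The KO values fell within the controls, and the log2 fold change was -0.09 ± 0.14 (SE), from -0.41 to 0.23 (edgeR adjusted p = 0.74). Mnt (ENSMUSG00000000282, chromosome 11, 74830920 to 74845725, plus strand), a repressor found in most cell types, was at 19.1, 20.9 and 20.4 CPM in controls and 21.1 and 22.0 CPM in KO. Both KO libraries were slightly above all controls, with a log2 fold change of 0.10 ± 0.09 (SE), from -0.11 to 0.31 (edgeR adjusted p = 0.56). Mga (ENSMUSG00000033943, chromosome 2, 119897228 to 119969581, plus strand) was at 85.6, 78.4 and 83.0 CPM in controls and 79.2 and 79.1 CPM in KO. The KO values fell within the controls, and the log2 fold change was -0.06 ± 0.07 (SE), from -0.22 to 0.11 (edgeR adjusted p = 0.67).

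The ratio of activators to repressors differed more between the KO libraries than between the group means. The summed level of Myc and Mycn over that of Mxi1, Mxd1, Mxd3, Mxd4 and Mnt, in CPM per kb, was 0.54, 0.50 and 0.52 in control replicates 1, 2 and 3. It was 0.48 in KO 1 and 0.78 in KO 2. KO 1 was thus just below the controls and KO 2 above every other library. On the log2 scale the ratio was -0.94 ± 0.06 (SD, n = 3) in controls and -0.71 ± 0.48 (SD, n = 2) in KO, a difference of 0.23 that is smaller than the spread between the KO libraries. As a score over the members it was given no test. The difference was 0.57 without KO 1 and -0.11 without KO 2. Both sides of the ratio moved in KO 2, where the activators summed to 59.98 CPM per kb against 48.2 to 48.4 in controls, and the repressors to 77.3 against 88.6 to 96.6. The summed level of all 10 members was 193 CPM per kb in KO 2 and 188 to 200.1 in controls.

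Taken repressor by repressor, the shift in KO 2 was uneven. The log2 ratio of Myc to Mxi1 was 1.21, 1.23 and 1.26 in controls, 1.20 in KO 1 and 1.89 in KO 2. The ratio of Myc to Mxd1 was 0.16 to 0.28 in controls, 0.06 in KO 1 and 0.76 in KO 2, and that of Myc to Mxd3 was 0.80 to 1.00, 0.82 and 1.52. The ratio of Myc to Mnt was 3.41 to 3.51 in controls, 3.31 in KO 1 and 3.63 in KO 2. Myc to Mlx, at 0.77 to 1.00 in controls, was 0.67 and 0.91 in KO, so in KO 2 both genes were higher and their ratio lay within the controls. The ratio of Mxd1 to Mxi1 was 0.93 to 1.07 in controls and 1.14 and 1.13 in KO.

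**Figure D3:**
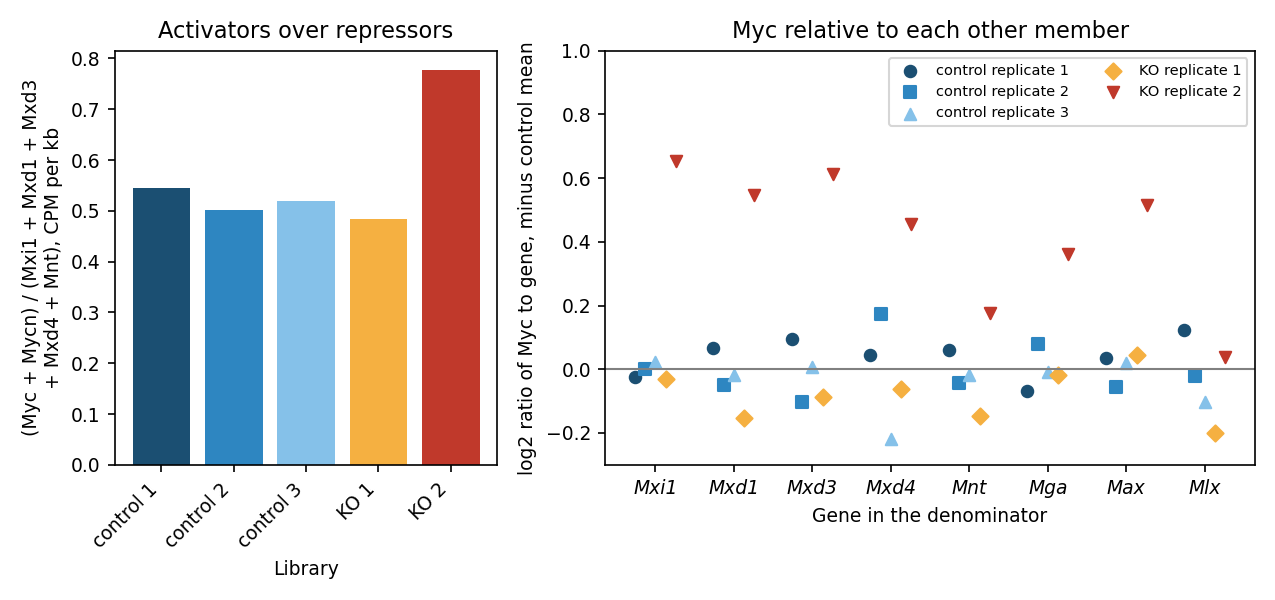
Left, bars from 0 show the summed CPM per kb of Myc and Mycn over that of the 5 MXD and MNT repressors in each library, 0.50 to 0.54 in controls, 0.48 in KO 1 and 0.78 in KO 2. Right, points show the log2 ratio of Myc to each of 8 other members (Mycn is not plotted) in each library, minus the mean of the 3 controls, with KO 2 above the controls for every gene plotted but Mlx.

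Other genes followed the pattern of Myc closely. The 3 tested protein-coding genes whose centred log2 CPM over the 5 libraries differed least from that of Myc were Igf2bp1, Pebp1 and Zbtb48, with root-mean-square differences of 0.0145, 0.0169 and 0.0169. Igf2bp1, which encodes a fetal RNA-binding protein, was at 79.6 CPM in each control and at 77.2 and 98.0 CPM in KO 1 and KO 2. With 13000 genes compared over 5 libraries, some will match closely.

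The genes that MYC is known to switch on were mostly higher in KO 2 and not in KO 1. Of 60 MYC-activated targets, chiefly genes of ribosome production and nucleotide supply, 3 rose (5%, beside 5.15% of all genes tested) and 0 fell in edgeR, where 11 were higher and 1 lower at an unadjusted p below 0.05 (beside 14.3% and 9.48% of all genes tested). DESeq2 called 3 higher and 1 lower, and limma-voom 2 and 0. Sord, for sorbitol dehydrogenase, averaged 115 ± 4.76 CPM in controls (SD, n = 3) and 150 ± 5.52 in KO (SD, n = 2), 1.31-fold higher (edgeR adjusted p = 0.014). Ipo4, for a nuclear import receptor, rose 1.29-fold (edgeR adjusted p = 0.04) and Rrp9, for a nucleolar RNA-processing protein, 1.45-fold (edgeR adjusted p = 0.042). All 3 missed the threshold when a control was left out (adjusted p at most 0.16), and Ipo4 and Rrp9 also without KO 2, where the log2 fold change of Rrp9 went from 0.54 to 0.26. Rrp9 also missed it in limma-voom (adjusted p = 0.0553), and all 3 without the filter on low counts (edgeR adjusted p from 0.0556 to 0.17). Without KO 1, 23 targets rose and 1 fell, beside 12.7% and 9.28% of all genes in that fit.

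Read by library, 45 of the 60 targets (75%) were above all controls in KO 2, beside 40.6% of all genes tested, and 18 (30%) in KO 1, beside 31.9%. Their median log2 difference from the controls was 0.24 in KO 2 and -0.0017 in KO 1, beside 0.02 and -0.0039 over all genes tested. Each control against the mean of the other two gave medians from -0.06 to 0.05, so only the value in KO 2 lay outside the spread of the controls. Ldha, for lactate dehydrogenase A, followed this pattern at 518 to 552 CPM in controls and 587 and 729 CPM in KO. Odc1, for ornithine decarboxylase, did not: it was at 950.2 to 1100.0 CPM in controls and 842 and 807 CPM in KO (edgeR adjusted p = 0.064). Both were named after their values were seen. The E-box was present in the windows of 17 of 55 targets (30.9%), beside 12% of all tested genes with a window. Over the 1112 tested genes with the hexamer, 4.41% rose and 2.16% fell, beside 5.80% and 1.86% of the 8153 without it, and the median log2 fold changes were 0.03 and 0.02.

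**Figure D4:**
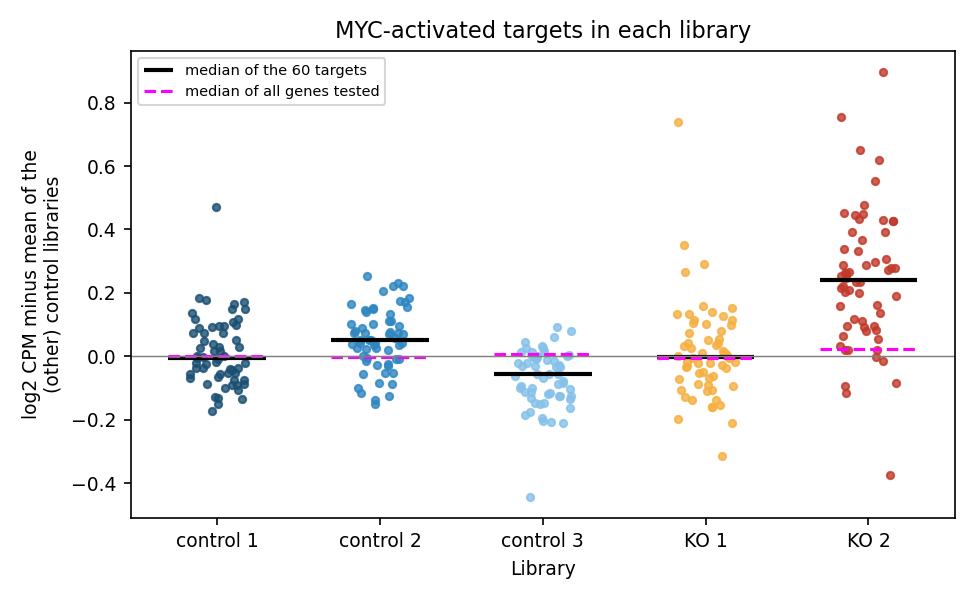
Each point is 1 of 60 MYC-activated targets, as log2 CPM minus the mean of the control libraries (for a control, the other controls), in each of 5 libraries. Black lines are the medians of the targets and dashed lines those of all genes tested. The target median is 0.24 in KO 2 and between -0.06 and 0.05 in the other libraries.

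Of the genes that MYC is known to hold down, Cdkn1a and Gadd45a passed, both higher in KO. Of 8 listed, 6 were tested, and 2 rose (33.3%, beside 5.15% of all genes tested) and 0 fell in edgeR. At an unadjusted p below 0.05 in edgeR, 4 were higher (beside 14.3% of all genes tested) and none lower (beside 9.48%). DESeq2 and limma-voom also called 0 lower. The list was chosen with earlier results of these data known, so these shares only describe it. Cdkn1a, for the cell cycle inhibitor p21, was at 4.57, 4.65 and 5.62 CPM in controls and 87.6 and 67.9 CPM in KO, a 15.7-fold rise (edgeR adjusted p = 2.1e-06). Cdkn1a lies on the chromosome of Csnk2b, 6.02 Mb away. Gadd45a, a growth arrest gene, was at 156, 166 and 165 CPM in controls and 231 and 249 CPM in KO, a 1.48-fold rise (edgeR adjusted p = 0.0027). Leaving out any single library ended neither call, and both are also known targets of p53. Cdkn1b, Fth1, Ndrg1 and Cebpa did not pass. Zbtb17 encodes MIZ1, the factor through which MYC holds down Cdkn1a. It went from 34.3, 32.1 and 32.5 CPM in controls to 40.2 and 45.7 CPM in KO, 1.31-fold (edgeR adjusted p = 0.033). With Kat2a, a histone acetyltransferase gene of the MYC coactivator complexes (75.6 CPM ± 1.36 to 94.0 CPM ± 2.55, SD, n = 3 and 2, edgeR adjusted p = 0.027), it was 1 of 2 of 17 cofactors that rose (11.8%, beside 5.15% of all genes tested). None of the 17 fell in edgeR, DESeq2 or limma-voom, or at an unadjusted p below 0.05 in edgeR. Both Zbtb17 and Kat2a missed the threshold when a control or KO 2 was left out (adjusted p at most 0.14), and without the filter on low counts (0.0756 for Kat2a and 0.12 for Zbtb17), as did Zbtb17 in DESeq2 (0.052).

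The corepressors that MXD proteins recruit did not pass. Of 16 genes of the SIN3, histone deacetylase and NCOR complexes, 0 were called in edgeR, DESeq2 or limma-voom. In edgeR 1 had an unadjusted p below 0.05 (beside 23.8% of all genes tested), and log2 fold changes ran from -0.15 to 0.22. The most abundant, Rbbp4, a histone-binding subunit, averaged 596 ± 5.74 CPM in controls (SD, n = 3) and 555 ± 0.63 in KO (SD, n = 2). Ncor1, a nuclear receptor corepressor, averaged 438 ± 9.97 and 411 ± 56.5. Its log2 fold change was -0.26 without KO 1 and 0.0378 without KO 2. Among 10 tested relatives with the same DNA-binding fold, 0 passed in edgeR, DESeq2 or limma-voom. In edgeR 2 had an unadjusted p below 0.05 (beside 23.8% of all genes tested). Srebf2 and Srebf1, regulators of sterol and fatty acid synthesis, were the most abundant, with log2 fold changes of -0.04 ± 0.07 and 0.06 ± 0.07 (SE).

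Of 19 genes that set the stability of the MYC protein, 0 passed in edgeR, where 5 had an unadjusted p below 0.05 (2 higher, 3 lower, beside 14.3% and 9.48% of all genes tested), DESeq2 called 2 and limma-voom 0. Usp7, a deubiquitinase gene, was at 875 CPM in the control mean and 726 CPM in KO, -0.27 ± 0.09 (SE) on the log2 scale (edgeR adjusted p = 0.12, DESeq2 0.0496). Huwe1, a ubiquitin ligase gene, had a log2 fold change of -0.05 ± 0.10 (SE). Without KO 1, 5 of the 19 were lower and 2 higher, beside 9.28% and 12.7% of all genes in that fit. Usp36, which encodes a nucleolar deubiquitinase of MYC and was named after its values were seen, stood at 55.2 to 60.3 CPM in controls and 67.9 and 91.8 CPM in KO (edgeR adjusted p = 0.053). In the MGA-containing Polycomb complex 1 of 11 genes rose (9.09%, beside 5.15% of all genes tested) and 0 fell in edgeR, where 1 was higher and 2 lower at an unadjusted p below 0.05 (beside 14.3% and 9.48%). DESeq2 called 1 lower and limma-voom 0. Ring1, a ubiquitin ligase subunit gene, went from 18.2 CPM ± 1.33 to 26.2 CPM ± 3.86 (SD, n = 3 and 2; edgeR adjusted p = 0.03). It lies 1.09 Mb from Csnk2b, and missed the threshold when a control or KO 2 was left out (adjusted p at most 0.14) and without the filter on low counts (0.12).

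Targets of MLX and its MONDO partners rose in part. Of 8 tested, 2 rose (25%, beside 5.15% of all genes tested) and 0 fell in edgeR, and DESeq2 and limma-voom called 0 lower. At an unadjusted p below 0.05 in edgeR, 3 were higher (beside 14.3% of all genes tested) and 1 lower (beside 9.48%). This list shares Hk2 with the MYC-activated targets and was chosen with earlier results of these data known, so its shares only describe it. Txnip, an inhibitor of glucose uptake and of thioredoxin, was at 73.0, 68.9 and 69.1 CPM in controls and 175 and 97.1 CPM in KO 1 and KO 2, a 1.93-fold rise (edgeR adjusted p = 0.022). Its paralogue Arrdc4 was at 4.18, 3.73 and 4.99 CPM in controls and 9.22 and 7.45 CPM in KO, also 1.93-fold (edgeR adjusted p = 0.015). Both were higher in KO 1 than in KO 2. Without KO 1 the log2 fold change of Txnip went from 0.95 to 0.44. Txnip missed the threshold when a control was left out, and Arrdc4 when control replicate 1 or 2 was (adjusted p at most 0.11). Without the filter on low counts both missed it (edgeR adjusted p = 0.12 and 0.0627).

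Late erythroid and macrophage markers were mostly below all controls in both KO libraries, and erythroid defining markers in KO 2. Of the 13 erythroid defining markers, 11 were below all controls in KO 2 (84.6%, beside 33.9% of all genes tested). In KO 1, 4 were below all controls (30.8%, beside 30.4%). This list shares Alas2, Slc4a1 and Epb42 with the late erythroid genes. Of 12 late erythroid genes, 11 were below all controls in KO 2 (91.7%, beside 33.9% of all genes tested) and 7 in KO 1 (58.3%, beside 30.4%), and 2 fell by the test (16.7%, beside 1.83% of all genes tested). Their summed level was 30981 to 35122 CPM in controls and 32049 and 27840 CPM in KO 1 and KO 2. The 10 early erythroid and progenitor genes summed to 4264 to 4583 CPM in controls and 3882 and 3371 CPM in KO. The sum weighs abundant genes most: 5 of the 10 had estimates below 0 and 5 above. Their median log2 fold change was -0.0026, and 0 were called. Megakaryocyte markers summed to 127 to 139 CPM in controls and 138 and 186 CPM in KO, and granulocyte and mast cell markers to 526 to 755 CPM and 723 and 603 CPM. Macrophage markers summed to 143 to 159 CPM in controls and 115 and 115 CPM in KO, with Vsig4 at 0 in every library. By the test, 5 of 13 fell (38.5%, beside 1.83% of all genes tested). In KO 1, 12 of the 13 were below all controls (92.3%, beside 30.4% of all genes tested). The count in KO 2 was also 12 (92.3%, beside 33.9%). Hepatocyte markers summed to 225 to 356 CPM in controls and 265 and 317 CPM in KO. Lymphoid markers summed to at most 19.1 CPM in any library, with Cd3e at 0 in every library. Stem and early progenitor markers summed to 130 to 151 CPM in controls and 127 and 137 CPM in KO. The part of these cells and stages in the values of Myc, Mxi1, Mxd1 and Mxd3 was not tested.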

How the data were processed

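The cells were sorted for TER119 and their poly(A) RNA sequenced on the Ion Proton platform, per the labels' protocols. The submitters' processing notes list STAR, Bowtie, HTSeq and cutadapt, with mm10 as the build; versions, annotation and strand use are not stated. Counts were deposited by the authors as whole numbers per Ensembl gene without normalisation, and 37607 of 39179 identifiers matched a symbol in GENCODE M21, which also gave positions and exon lengths.

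Libraries were grouped by title. Genes were kept by filterByExpr (13000) and scaled by TMM, with factors of 0.970 to 1.03. The groups were compared by the two-sided quasi-likelihood test of edgeR 4.0.16 in R 4.3.3, adjusted by Benjamini-Hochberg over all 13000 genes, with a threshold of 0.05. Standard errors were derived from the F statistic of each gene, and 95% intervals from those errors. Log2 differences of a library from the controls, the patterns nearest to Myc and the correlations of deviations used log2 CPM with a prior count of 2. CPM values and ratios had no prior count. The steps were tested on simulated data. Reads carry no molecular identifiers, so counts are not independent molecules.

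The members and the gene lists were chosen with earlier results of these data known, so the called shares of the lists only describe them. The genes named are the members, Csnk2b, up to 3 called genes of each list by lowest p (the 2 most abundant where none was called), the 3 nearest patterns to Myc, and those said to be named after their values were seen, as are Psmc3ip and Prelid1. Alternatives were RLE scaling, globin genes left out, DESeq2 1.42.0, limma-voom (limma 3.58.1), other filters on low counts, a block for the replicate number, leaving out each library, and other forms of the ratio.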

Additional observations from a re-analysis of the deposited data

How the results depend on the processing

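With all 5 libraries, the 10 members kept the direction of their log2 fold change and stayed outside the threshold in 68 of 69 values over RLE scaling, no globin genes, 2 filters, DESeq2, limma-voom and the replicate block; Mxd4 was 0.0291 with the replicate block. Mycn could not be tested at 5 CPM in 2 libraries. With a library left out, the ranges that crossed 0 were -0.0779 to 0.28 for Myc, -0.0795 to 0.66 for Mycn, -0.27 to 0.0728 for Mxd1, -0.33 to 0.0081 for Mxd3, -0.18 to 0.0259 for Mxd4, -0.0759 to 0.0033 for Srebf2, -0.26 to 0.0378 for Ncor1 and -0.24 to 0.10 for Huwe1. Members were called only in the fit without KO replicate 1, with log2 fold changes of 0.28 (Myc), -0.37 (Mxi1), -0.33 (Mxd3) and -0.27 (Mxd1). That fit rests on a lone KO library, and more of all genes tested were called in it too. The cause was not tested. The ratio of activators to repressors changed by -0.11 to 0.57 with a library left out, and by 0.23 to 0.24 with CPM without length, Mga among the repressors or the longest coding transcript, the last chosen after seeing the data.

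Over all genes, 669 rose and 238 fell, 235 and 53 without a filter, where more genes are tested, and 210 to 1709 and 31 to 1247 with a library left out. The called genes ranged as follows with a library left out. MYC-activated targets had 0 to 23 higher and 0 to 1 lower, cofactors 0 to 4 and 0 to 4, stability genes 0 to 2 and 0 to 5, the MGA complex 0 to 2 and 0 to 2, corepressors 0 to 1 and 0 to 2, relatives 0 to 1 and 0 to 1, MLX targets 0 to 3 and 0 to 1, and MYC-repressed targets 2 to 4 higher. Without a filter 0 were higher among MYC-activated targets, cofactors, the MGA complex and MLX targets. With DESeq2, 1 cofactor and 1 stability gene were higher, and 1 stability gene, 1 gene of the MGA complex and 1 MYC-activated target lower. With RLE scaling and without globin genes 1 stability gene was higher. The replicate block gave 0 cofactors higher (adjusted p = 0.0739 for Kat2a and 0.0771 for Zbtb17) and 1 stability gene higher, and 702 genes higher and 171 lower in all. The deviations of libraries with the same number correlated at 0.002 and 0.042. With only 2 KO libraries the deviations of KO 1 mirror those of KO 2, so control replicate 2 gave -0.042 with KO 1. These values are therefore not separate checks and cannot show whether the numbers pair libraries. No label says that they do. Csnk2b was lower in every setting. Low depth limits genes read few times, such as Mycn, Mycl and Mlxipl.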
